A study of Homo sapiens with 2 samples.

Results

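The array carried 1658 probes whose gene name was LINC followed by a number, the naming scheme for long intergenic noncoding RNAs, and these probes stood for 838 LINC names. All were taken by name alone, from 58199 non-control probes with a value on both arrays. RNA came from A375, an established human melanoma cell line, 48 h after transfection with siRNA against THOC2 (si-THOC2) or with a control siRNA (NC). There was 1 array for each, so no test was possible, and the paper does not give the number of cultures behind each array. THOC2 is a subunit of the THO complex, which joins transcription to the export of RNA from the nucleus, and the comparison asked which transcripts changed when it was reduced. The methods list 4 siRNAs against THOC2, and the labels do not say which of them was hybridized. The source labels of both arrays named the opposite siRNA from their titles and descriptions, which were followed here. The THOC2 probes had processed signals of 136 and 67.3 on the NC array and of 40.9 and 35.1 on the si-THOC2 array, log2 fold changes of -1.42 and -0.63, so that THOC2 was lower on the array titled and described as si-THOC2.

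Of the melanocyte lineage genes, SOX10 had signals of 6196 and 5196, and MITF, S100B and DCT were also well above background on both arrays. PMEL, TYR and TYRP1 were not well above background on either array, and MLANA had 1 probe above it on the si-THOC2 array only. In all, 5 of 8 melanocyte, 3 of 5 mesenchymal, 2 of 5 keratinocyte, 3 of 4 leukocyte and 4 of 4 endothelial marker genes on the array had a detected probe. The defining marker of leukocytes, PTPRC, had signals of 27.4 and 28.9 at 1 of 5 probes, and the endothelial marker PECAM1 had signals of 16.2 and 17.6 at 1 of 3 probes, with the other probes of both not well above background. Not all signals outside the lineage were dim. The keratinocyte gene KRT10 had signals of 32306 and 20623, and KRT14 had 83.9 and 104 at one probe, whereas KRT5, KRT1 and TP63 were not well above background. The endothelial gene KDR had 56.0 and 55.3. The part of these signals in the LINC values was not tested.

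Long intergenic noncoding RNAs are transcripts that lie between protein-coding genes and have no long open reading frame. Most are spliced, capped and polyadenylated like mRNAs, many stay in the nucleus, and as a class they are less abundant and more restricted to particular tissues than mRNAs. LINC numbers are provisional names, and a transcript can be given another symbol once a function or a small encoded protein is described. In melanoma some of these RNAs are used as lineage or risk markers.

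Several of the 60-base probes behind the largest changes are shown with their hg19 positions and strands, because each change rests on the letters of 1 or 2 probes. They are printed 5′ to 3′ as the scan file lists them.
LINC00659, chr20:61405708-61405767, minus strand, log2 fold change 0.99: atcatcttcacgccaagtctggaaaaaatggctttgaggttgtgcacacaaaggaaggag
LINC00659, chr20:61405788-61405847, minus strand, log2 fold change 1.03: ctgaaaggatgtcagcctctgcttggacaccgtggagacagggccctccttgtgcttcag
LINC00303, chr1:204009447-204009506, minus strand, log2 fold change 1.52: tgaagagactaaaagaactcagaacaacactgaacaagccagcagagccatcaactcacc
LINC01363, chr1:167164330-167164389, minus strand, log2 fold change 1.17: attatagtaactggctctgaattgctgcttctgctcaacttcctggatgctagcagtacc
LINC00858, chr10:86053962-86054021, plus strand, log2 fold change -0.98: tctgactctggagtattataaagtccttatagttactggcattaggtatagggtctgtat
The LINC00659 probes did not overlap and lay 20 bases apart.

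Most LINC probes gave no signal that the scanner software marked as well above background. On the NC array 412 of 1658 passed (24.8%), and on the si-THOC2 array 378 passed (22.8%). The same shares over all non-control probes were 42.3% and 39.4%. On both arrays 349 LINC probes were detected, 63 were detected on the NC array only, 29 on the si-THOC2 array only, and 1217 on neither. The 441 detected on at least 1 array were 26.6% of the LINC probes, against 43.5% of all probes. Antisense RNA names ending in -AS lay between these, with 36.3% of 1590 probes, and probes of lnc- and XLOC names, mostly transcript models without an approved symbol, were detected least often, in 2272 of 11965 probes. Probes of RefSeq protein-coding symbols were detected in 64.5% of 25489. No LINC spot was flagged as an outlier and none was saturated.

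**Figure D1:**
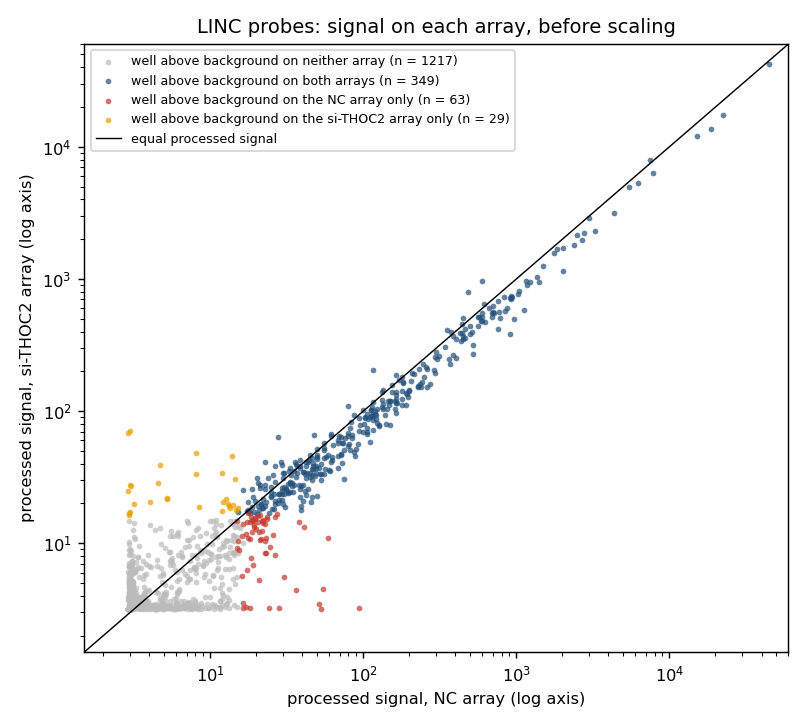
Processed signal of each of the 1658 LINC probes on the NC array (x axis) and the si-THOC2 array (y axis), both on log axes and before scaling; colours give the array on which a probe was well above background. Bright probes lie a little below the line of equal signal, where the NC array was brighter, and the probes of 1 array only lie at low signal.

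Counted by name, 293 of 838 LINC names had at least 1 detected probe. A LINC name had from 1 to 8 probes. Of the 452 names with 2 or more, 205 had a detected probe, but in only 46 were all probes detected, and in 159 some were detected and others were not. LINC00303 is an example, with signals of 27.6 and 63.9 at the probe printed above and of 2.99 and 3.27 at its other probe. Probes whose genomic span was over 60 bases, which cross an intron, were detected in 31 of 134 (23.1%), and those within 60 bases in 410 of 1522 (26.9%).

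The LINC probes were not spread over the chromosomes as other probes were. Chromosome 13 carried the largest number, 149 probes of 100 names, 8.99% of the LINC probes against 2.15% of the probes of other names. It also had one of the lowest detected shares, 14.1%. Chromosome 16 had 11.1% (5 of 45) and chromosome 21 had 12.9% (8 of 62). At the other end, 41.5% of the LINC probes of chromosome 17 and 40.0% of those of chromosome 12 were detected. On chromosome 18 the LINC probes (34.5%) and the probes of other names (34.4%) were detected about equally often, and on every other numbered chromosome and X the LINC share was the lower. LINC00460, an RNA studied in several carcinomas, was a well-detected name of chromosome 13, with signals of 2376, 1494 and 926 on the NC array and of 1796, 1247 and 706 on the si-THOC2 array at its 3 probes.

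**Figure D2:**
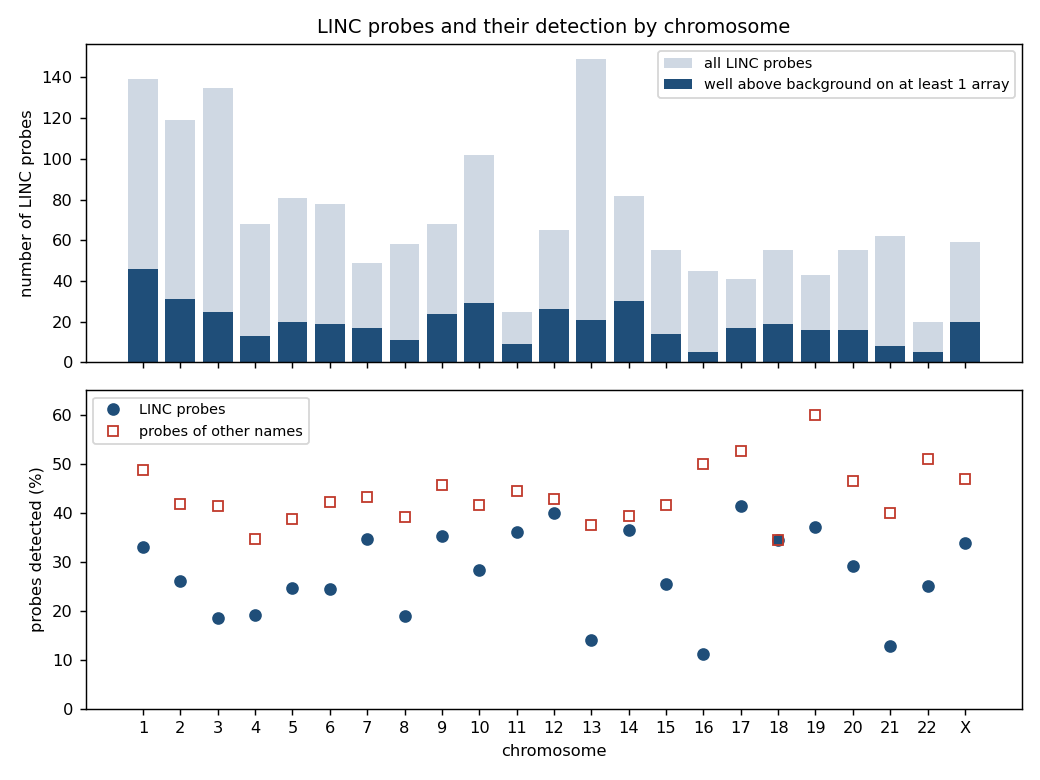
Top, number of LINC probes on each chromosome (pale bars) and the number well above background on at least 1 array (dark bars). Bottom, percent detected among LINC probes (filled circles) and among probes of other names (open squares): chromosome 13 had 149 LINC probes and a detected share of 14.1%.

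Detection also differed with the base composition of the probe. Of LINC probes with 55% or more G and C, 82 of 170 (48.2%) were detected, compared with 188 of 901 (20.9%) from 35% to under 45%. Probes of other names had the same order, with 59.4% and 40.5%. The median G and C content was 45% in detected LINC probes and 41.7% in the others, the same medians as in probes of other names. AATAAA, the poly(A) signal, stood in 194 of 1658 LINC probes (11.7%) and in 7.73% of the probes of other names, and its reverse complement TTTATT in 3.38% and 3.61%. LINC probes with AATAAA were detected in 22.7% and those without it in 27.1%.

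**Figure D3:**
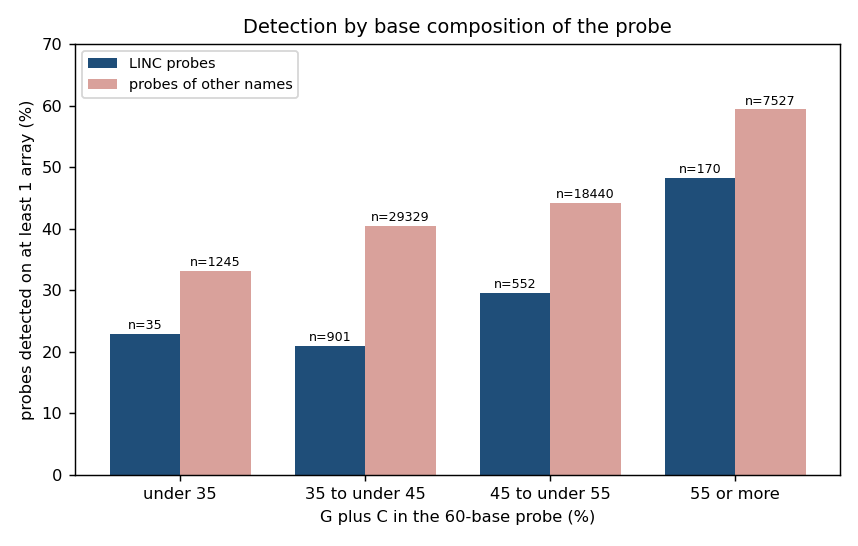
Percent of probes detected on 1 array or both (y axis) in 4 classes of G and C content (x axis) for LINC probes (dark bars) and probes of other names (pale bars), with the number of probes over each bar. The share detected was 20.9% in LINC probes of 35 to under 45% and 48.2% in those of 55% or more.

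The start regions of detected and undetected LINC names were compared in RefSeq promoter sequence, which runs from 250 bases before to 50 after the annotated start and was given for 603 of the LINC names. The CpG ratio is the number of CG steps over that expected from the C and G content. Its median was 0.39 in the 211 detected names and 0.25 in the undetected names, compared with 0.58 over 27305 RefSeq promoters. A ratio over 0.6 was found in 36.0% of detected names, 19.1% of undetected names and 48.9% of all promoters. The promoters of a detected name with a high ratio and of one with a low ratio are shown, with CG in capitals. The promoter of LINC00271, now named AHI1-DT, had a ratio of 1.11, and that of LINC00659 had a ratio of 0.25.
LINC00271, GRCh38.p14 chr6:135497551-135497850, plus strand: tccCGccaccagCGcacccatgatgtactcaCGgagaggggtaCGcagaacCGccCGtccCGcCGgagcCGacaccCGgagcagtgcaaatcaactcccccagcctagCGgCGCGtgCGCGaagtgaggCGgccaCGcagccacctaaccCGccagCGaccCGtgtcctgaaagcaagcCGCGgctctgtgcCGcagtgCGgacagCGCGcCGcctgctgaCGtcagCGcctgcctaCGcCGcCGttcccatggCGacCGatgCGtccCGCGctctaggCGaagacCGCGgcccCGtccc
LINC00659, GRCh38.p14 chr20:62776807-62777106, minus strand: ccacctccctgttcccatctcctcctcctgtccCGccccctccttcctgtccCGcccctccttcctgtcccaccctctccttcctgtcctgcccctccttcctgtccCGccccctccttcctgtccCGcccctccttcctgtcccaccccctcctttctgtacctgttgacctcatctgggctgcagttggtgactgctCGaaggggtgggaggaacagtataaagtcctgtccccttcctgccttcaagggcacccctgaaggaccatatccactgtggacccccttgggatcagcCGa
The LINC00271 window also held TGACGTCA, the palindromic cAMP response element that the factor CREB binds, as did 5 of 603 LINC promoters (0.829%) and 1.98% of all promoters. Its core TGACG, searched on both strands and contained in the full element, was in 21.2% of LINC promoters and 25% of all.

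LINC names are provisional, and 834 of 838 could be matched to a current RefSeq entry, 729 by the symbol itself and 105 as an older symbol. Of these, 104 now have a symbol of another kind, and 50 of the 104 (48.1%) had a detected probe, compared with 241 of the 730 (33.0%) that are still LINC names. RefSeq now lists 32 of the names as protein-coding, of which 10 were detected, 796 as long noncoding RNA, of which 278 were detected, and 6 as transcribed pseudogenes. Some of the 32 are older symbols of a coding gene, as LINC00341 is of SYNE3 and LINC00950 of TMEM8B. The listing therefore need not mean that the LINC RNA itself encodes a protein. For such names the promoter and gene span used here were those of the coding gene.

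For the comparison of si-THOC2 with NC, each array's log2 processed signal was centred on its own 75th percentile, which differed by 0.31 between the arrays. The 349 LINC probes on both arrays were centred near 0, with a median log2 fold change of 0.01, quartiles of -0.19 and 0.19 and an SD over probes of 0.35. Over all 22206 probes on both arrays the median was 0.04 and the SD 0.32. Of the LINC probes, 173 (49.6%) were below 0, compared with 43.1% of all probes. Most were close to 0, as 303 of 349 (86.8%) lay within 0.5 of 0 on the log2 scale, and 90.0% of all probes did.

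No LINC probe on both arrays was lower by 2-fold or more, and 4 were higher by 2-fold or more. Over all probes on both arrays 0.365% were lower and 0.829% were higher, and the 4 LINC probes were 1.15% of 349. In a bulk sample fewer cells with an RNA and less of it per cell cannot be told apart. When the 441 probes detected on at least 1 array were counted, 23 were lower and 26 higher (5.22% and 5.90%), against 3.33% and 2.93% of all such probes. All 23 lower probes were detected on the NC array only, and 22 of the 26 higher probes on the si-THOC2 array only. The shares were larger in lnc- and XLOC names (8.89% and 8.23%) and smaller in antisense names (3.12% and 4.33%). Detected on 1 array only were 92 of the 441 LINC probes and 3136 of the 25342 probes in all. LINC probes on both arrays had a median NC signal of 88.8, against 218 for all probes. The part of signal in these shares was not tested. With dim signals set to their limit, 6 of the 441 LINC probes were lower and 16 higher (1.36% and 3.63%), against 0.888% and 1.88% of all probes. With lowess centring the split of 23 lower and 26 higher became 17 lower and 31 higher, and all probes were not counted under that setting.

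A fold change is given with ± the signal error of the scanner software, carried to the log2 scale. Probes spotted several times on the array gave a median SD of the log2 fold change of 0.05 above a log2 signal of 8 (244 probes) and 0.10 between 6 and 8 (36 probes). It was 0.17 between 4 and 6 and 0.42 below 4, from 5 and 15 repeated probes only. Neither the signal error nor this SD includes the difference between cultures, which 1 array per condition does not show. In LINC probes the SD of the log2 fold change was 0.40 at a mean log2 signal under 5 (76 probes) and 0.31 at 9 or more (57 probes). Over all probes it was 0.42 and 0.22 in these ranges.

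**Figure D4:**
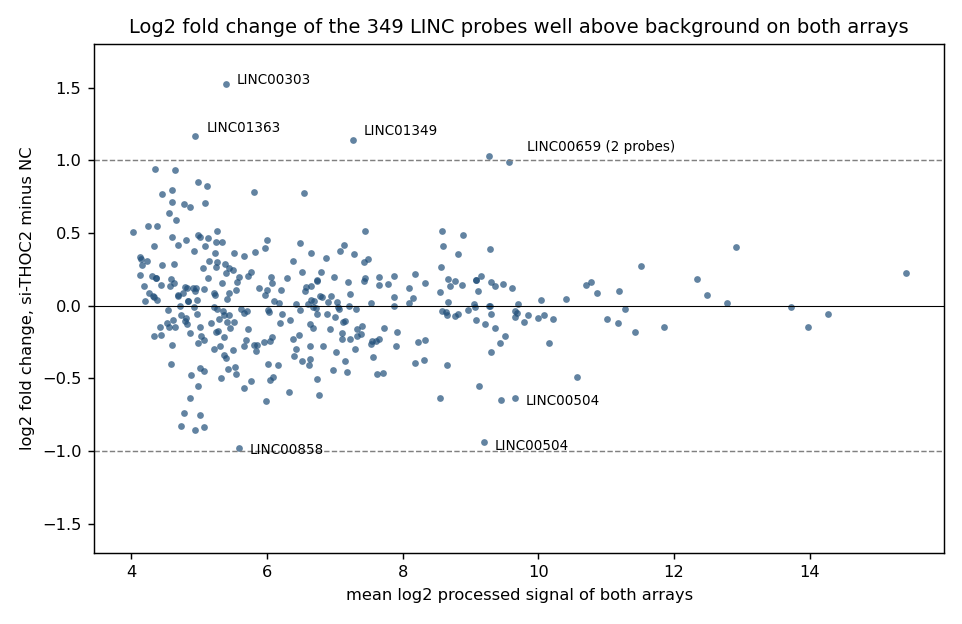
Log2 fold change, si-THOC2 minus NC (y axis), of the 349 LINC probes on both arrays against the mean log2 processed signal of the arrays (x axis), with 2-fold changes as dashed lines. LINC00659 stands out at high signal with both probes near 1, and LINC00504 with both probes below 0; most other probes far from 0 lie at low signal.

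LINC00659, an intergenic RNA of chromosome 20, had the highest mean among the 69 LINC names with 2 or more probes on both arrays, a log2 fold change of 1.01. Its printed probes had signals of 598 and 484 on the NC array and of 957 and 798 on the si-THOC2 array. Both were therefore brighter on the si-THOC2 array although that array was the dimmer, with log2 fold changes of 0.99 ± 0.20 and 1.03 ± 0.20. The SD between these 2 probes was 0.03, and under the 6 other scalings their values ran from 0.82 to 1.03. The 1 probe at 1.03 passed 2-fold and the other, at 0.99, lay just inside. Neither passed with quantile normalization, lowess centring, normexp background correction or the authors' normalized values, 4 of the 6 scalings.

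The other LINC probes higher by 2-fold were dimmer, and all were on chromosome 1. LINC01349 went from 115 to 205 (log2 fold change 1.14 ± 0.21), LINC00303 from 27.6 to 63.9 (1.52 ± 0.27) and LINC01363 from 22.9 to 41.5 (1.17 ± 0.30). Each was supported by 1 detected probe. With normexp background correction, which adds an offset of 50 to each signal, they had log2 fold changes of 0.76, 0.67 and 0.49, and no LINC probe on both arrays then reached 2-fold. The next largest increases were 0.94 for LINC00857, 0.93 for LINC01311, 0.85 for LINC00540, 0.82 for LINC00260 and 0.80 for LINC00964, at NC signals between 16.4 and 29.0. The second probe of LINC00857 also lay above 0 (135 and 145, log2 fold change 0.42), whereas the second of LINC00540 was near 0 (122 and 103, log2 fold change 0.06).

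Among decreases, LINC00504 was the name with the lowest mean over 2 or more probes. Its detected probes had signals of 905 and 1118 on the NC array and of 381 and 581 on the si-THOC2 array, with log2 fold changes of -0.94 ± 0.20 and -0.64 ± 0.20. Under the 6 other scalings the first ran from -1.02 to -0.94 and the second from -0.71 to -0.64. The remaining LINC00504 probe, far from these on the chromosome, was not well above background on either array (3.05 and 4.23).

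Among LINC probes on both arrays LINC00858 had the lowest log2 fold change, from 75.3 to 30.8 (-0.98 ± 0.26), at 1 of its 2 probes. With normexp background correction it was -0.41, and the first LINC00504 probe was then the lower. Its other probe was at 3.40 and 5.59, not well above background. LINC00909, which RefSeq now names ZNF407-AS1, was lower at both detected probes, with 39.4 and 19.1 at one (-0.74 ± 0.35) and 72.2 and 40.7 at the other (-0.52 ± 0.24). LINC01563 went from 971 to 500 (log2 fold change -0.65 ± 0.20). The remaining large decreases were LINC01146, now HISLA (-0.85), LINC01550 (-0.83), LINC00665 (-0.83), LINC00317 (-0.75) and LINC01138 (-0.65), all at NC signals under 90. Of these, LINC01550 had 3 other probes on both arrays with NC signals of 145 to 260, which gave -0.01, 0.03 and -0.01. A pair of these 3 shared 42 letters, so they are not all separate readings.

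Of the 92 LINC probes detected on 1 array only, 65 gave a fold as a lower bound, taken against the probe's own dim signal or, where that was smaller, the dimmest signal that the array still marked as well above background (14.7 for NC and 15.9 for si-THOC2). The other 27 gave no bound. LINC00539 had the largest decrease among them, with 93.7 on the NC array and 3.21 on the si-THOC2 array, at least 4.76-fold lower. LINC01021 was at least 2.98-fold lower (58.7 and 10.9), LINC01432 at least 2.75-fold (54.2 and 4.5), LINC00994 at least 2.70-fold (53.0 and 3.19) and LINC01121 at least 2.62-fold (51.6 and 3.47). On the other side LINC01010 read 2.97 on the NC array and 70.7 on the si-THOC2 array, at least 5.98-fold higher. LINC01256 was at least 5.76-fold higher (2.92 and 68.1), LINC01489 at least 4.05-fold (8.01 and 47.8), LINC00476 at least 3.90-fold (13.8 and 46.1) and LINC00499 at least 3.32-fold (4.66 and 39.3). LINC01256 and LINC01489 had 1 probe each, and of the other 8 names LINC01021 and LINC00476 alone had a further probe well above background. LINC00476, now ERCC6L2-AS1, had another probe on both arrays at 598 and 479, with a log2 fold change of -0.01.

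Probes of 1 LINC name often differed. Over the 69 names with 2 or more probes on both arrays, the median SD within a name was 0.20, and the SD of the name means was 0.29. All probes had 1 sign in 31 of the 69 names, 17 below 0 and 14 above, and the mean lay within 0.5 of 0 in 64. LINC00909 and LINC00504 were at or below -0.5, and LINC00659, LINC00857 and LINC00176 at or above 0.5. Probes that shared 20 or more letters, 10 pairs in 9 names, differed by a median of 0.12, and 187 pairs with fewer shared letters in 66 names by 0.22. The largest overlap, 54 letters in LINC01192, gave 0.45 and 0.36 at NC signals of 26.6 and 36.9. The next largest are printed to show the readings of nearly the same probe at higher signals, with the shared letters in capitals.
LINC01060, chr4:189406960-189407019, signals 934 and 729, log2 fold change -0.05: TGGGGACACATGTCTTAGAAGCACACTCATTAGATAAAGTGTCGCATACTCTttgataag
LINC01060, chr4:189406952-189407011, signals 907 and 714, log2 fold change -0.04: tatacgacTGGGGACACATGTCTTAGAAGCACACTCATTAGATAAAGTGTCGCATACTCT
LINC01116, chr2:177494318-177494377, signals 162 and 138, log2 fold change 0.08: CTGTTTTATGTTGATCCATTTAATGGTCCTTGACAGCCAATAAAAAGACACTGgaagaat
LINC01116, chr2:177494325-177494384, signals 179 and 124, log2 fold change -0.23: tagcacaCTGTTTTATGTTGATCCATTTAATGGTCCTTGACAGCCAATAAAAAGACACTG
The 52 shared letters of LINC01060 gave log2 fold changes 0.01 apart, and the 53 of LINC01116 gave values 0.31 apart and of opposite sign.

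**Figure D5:**
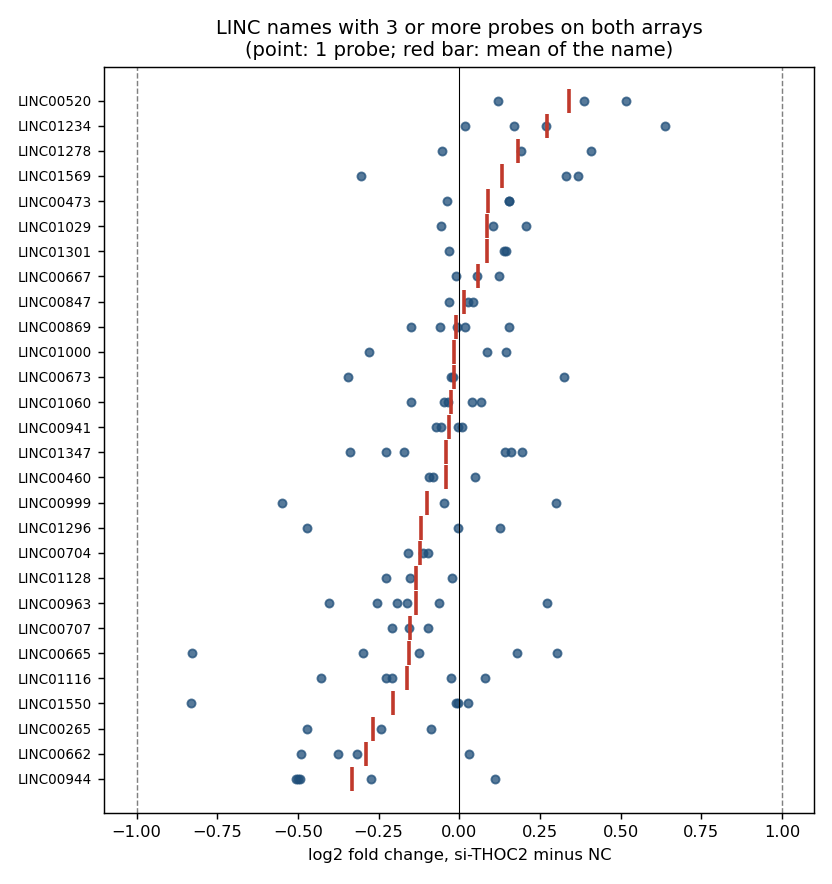
Log2 fold change, si-THOC2 minus NC (x axis), of each probe (points) and its mean (red bars) for the 28 LINC names with 3 or more probes on both arrays. All 28 means lie between -0.33 and 0.34.

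Among the 28 names with 3 or more probes on both arrays, the lowest mean was that of LINC00944, -0.33 over 5 probes. These 5 are not all separate readings, as pairs of them share 39 and 23 letters. The highest mean was that of LINC00520, 0.34 over 3. LINC00662 had a mean of -0.29 over 4 probes and LINC00265 of -0.27 over 3, all 3 below 0. LINC01234 was above 0 at all 4 probes, with a mean of 0.27. In contrast, LINC00941, LINC00847 and LINC01060 lay within 0.05 of 0 on average. The spread between probes of a name was of the size of these means, with a median range from lowest to highest of 0.41.

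RNAs linked with melanoma were measured in part. LINC01212, the melanoma RNA SAMMSON whose gene lies near MITF, was not well above background at either probe (6.75 and 3.92 on the NC array, 3.25 and 3.24 on the si-THOC2 array). LINC00518, whose RNA is read in a skin patch test for melanoma, was detected at 1 of 4 probes on the si-THOC2 array only (14 and 19.5). LINC00520 was detected at 3 of 4 probes, with signals of 612, 355 and 32.2 on the NC array and of 645, 409 and 28.2 on the si-THOC2 array. Its log2 fold changes were 0.39 ± 0.20, 0.52 ± 0.20 and 0.12 ± 0.31. LINC00673 was on both arrays at all 4 probes, and its changes of -0.35, -0.03, -0.02 and 0.32 had both signs. LINC00340 was on the array only under its current symbol, CASC15, with 38 and 48.6 at 1 probe (log2 fold change 0.67). None of the 8 probes of this list on both arrays, 1 of them of CASC15, passed 2-fold, and their median was 0.22, against 0.04 over all probes. With 0.365% of all probes on both arrays lower and 0.829% higher, no call among 8 is near the share of the whole array.

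LINC names whose RNA is now known to encode a microprotein were partly bright and partly at background. LINC00493, now SMIM26, a mitochondrial protein, had signals of 22376 and 17332 (log2 fold change -0.06). LINC01420, now NBDY, whose product is a component of P-bodies, had 6233 and 5286 at one probe and 2682 and 1988 at the other (0.07 and -0.12). LINC00467 had 1396 and 943 at one probe and 693 and 511 at the other (-0.26 and -0.13), and LINC00998, now SMIM30, had 388 and 266 (-0.24). LINC00665 had 5 probes on both arrays, with changes from -0.83 to 0.30. LINC00689 and LINC00908 were on both arrays at 1 probe each, with 0.11 and -0.15. LINC00116 (now MTLN), LINC00948 (now MRLN, a regulator of the muscle calcium pump) and LINC00961 (now SPAAR) were not well above background. For LINC00266-1 no probe was found. In all 7 of 10 names had a detected probe, none of the 13 probes on both arrays passed 2-fold, and their median was -0.13. Among all probes on both arrays 0.365% were lower and 0.829% higher, so no call among 13 is near that share.

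LINC00473 is induced by cAMP through CREB, and the study followed the cAMP pathway. Its 3 probes had signals of 339, 59.0 and 26.1 on the NC array and of 304, 46.4 and 23.4 on the si-THOC2 array. The log2 fold changes of 0.15 ± 0.21, -0.04 ± 0.24 and 0.15 ± 0.33 were within the error of the signals. LINC01021, or PURPL, which p53 induces, was on the NC array only at 2 of its 6 probes, at least 2.98-fold and at least 1.25-fold lower on the si-THOC2 array (58.7 and 10.9; 24.7 and 9.37). Its other 4 probes were not well above background. LINC00657, or NORAD, which binds Pumilio proteins, had 591 and 480 (log2 fold change 0.01). LINC00261, an RNA of endoderm, and LINC01139 were not well above background. None of the 4 probes of this list on both arrays passed 2-fold, where 0.365% of all probes on both arrays were lower and 0.829% higher. Their median was 0.08.

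RNAs often studied in carcinomas were mostly present, with 37 of 43 probes detected and a probe on both arrays in 13 of 15 names. Of all LINC probes 26.6% were detected, and of all non-control probes 43.5%. None of the 36 probes on both arrays passed 2-fold, their median was -0.08, and 9 of the 13 name means were below 0. Among all probes on both arrays 0.365% were lower and 0.829% higher, so no call among 36 is near that share. Below 0 were 49.6% of LINC probes and 43.1% of all probes on both arrays. LINC00152, or CYTOR, had 4352 and 3170 (-0.15), and LINC00511 had 369 and 226 (-0.40 ± 0.21). LINC00662, LINC01116 and LINC00963 had 4, 5 and 6 probes on both arrays, with means of -0.29, -0.16 and -0.13. LINC00707 had 3 probes, all below 0, with a mean of -0.15. LINC00460 and LINC00941 had means of -0.04 and -0.03. Above 0 were LINC01234, with a mean of 0.27, both detected probes of LINC00958 (0.26 and 0.52), LINC00839 (0.14) and LINC00346 (0.11), whereas LINC00312 had -0.15. LINC01133 and LINC00844 were not well above background.

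The 10 LINC probes with the highest NC signals, which depend on the probe as well as on the RNA, had log2 fold changes between -0.18 and 0.41. LINC01356 had 45101 and 42530 (log2 fold change 0.22), and LINC00869 had 18826 and 13703, 15065 and 12080, and 7773 and 6347 at 3 probes (-0.15, -0.01 and 0.02). LINC01001 had 7435 and 7950 (0.41 ± 0.20), the largest change among the 10. LINC01419 had 5430 and 4981 (0.19), and LINC00271 had 3269 and 2324 (-0.18). The other 3 were the probes of LINC00493, LINC01420 and LINC00152 given above.

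The nearest protein-coding gene of each LINC name was taken from the gene order of RefSeq. Of 834 LINC names, 564 had a nearest coding gene with a detected probe, and of these 206 (36.5%) were detected, compared with 85 of the 270 (31.5%) whose neighbour was not. Where the spans of the genes overlapped, on either strand, the counts were 22 of 41 against 0 of 15. The shares were 40.4% and 37.9% for neighbours under 10 kb away, 37.8% and 34.4% at 10 to 100 kb, and 28.7% and 29.7% over 100 kb. For the 160 names on both arrays with a neighbour on both arrays, Pearson's r between the mean log2 fold changes was 0.07 and Spearman's rho 0.07, and 83 had 1 sign. Among the 17 overlapping pairs r was 0.49 and rho 0.51, and 11 had 1 sign. For the pairs under 10 kb, at 10 to 100 kb and over 100 kb apart r was -0.01, 0.16 and -0.15. These are descriptions across genes read from the same 2 arrays. LINC00260 and the overlapping ATP2B4 had log2 fold changes of 0.82 and 0.33, and LINC00473 and PDE10A of 0.09 and -0.07. LINC00659 and its neighbour NTSR1, a neurotensin receptor, had 1.01 and 0.50. LINC00303 (1.52) and LINC01363 (1.17) lay beside SOX13 and POU2F1, which had -0.10 and -0.06.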

How the data were processed

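RNA from A375 cells given each siRNA was hybridized to 1 Agilent SurePrint G3 v3 array each. The deposited scan files hold intensity values per spot, which the authors extracted with Feature Extraction 10.7.1.1, as the submitters' processing notes give it. The processed signal used here is already corrected for background. The authors also deposited log2 values normalized over both arrays, used as an alternative, and a table of their own fold changes, which was not used. Probe names and hg19 positions are those of the scan files.

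Outlier-flagged spots (230 for NC, 253 for si-THOC2) and controls were dropped. Repeated spots were averaged on the log2 scale. Each array was centred on its 75th percentile. A probe entered the comparison when either array marked it as well above background, and 2-fold or more was called. The test named in the methods was not run, because it needs replicate arrays. The named LINC RNAs were those of the 4 lists (melanoma, microprotein, known inducer or role, carcinoma), the 10 largest changes each way on both arrays, the 5 largest bounds each way on 1 array, names with 3 or more probes on both arrays, and the 10 highest NC signals. LINC00176 and LINC01192 were named after their values were seen, as were the probes printed for shared letters and the neighbouring genes. LINC01198, named for its probe positions, and LINC00341 and LINC00950, named as older symbols of coding genes, were also outside these rules. Members and lists were chosen with earlier results of these data known. The number of arrays limits the precision. The scripts were tested on simulated data. The sequences of some named probes are not reported here.

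Alternatives were quantile normalization, median scaling, lowess centring (span 0.3), normexp (offset 50), centring within 128 blocks of the array, the authors' values, other detection rules, dim signals at their limit, a fold of 3, and genes in place of probes. Python 3.11.15 was used with numpy 2.4.6, pandas 2.3.3, scipy 1.17.1, statsmodels 0.14.6 and matplotlib 3.10.9, and R 4.3.3 with limma 3.58.1. Names, promoters and gene order came from RefSeq (GRCh38.p14).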

Additional observations from a re-analysis of the deposited data

How the results depend on the processing

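No paired analysis was possible because there was 1 array per condition. With 1 array each, the replicates could not be left out in turn. The counts of 23 lower and 26 higher LINC probes became 1 and 2 with normexp background correction, 0 and 4 on both arrays only, 60 and 110 with no detection filter and 6 and 16 with dim signals at their limit. With a fold of 3 the lower count was 14. Quantile normalization, median scaling, lowess centring, block centring, the authors' values and genes in place of probes left both counts within 1.5 times, at 17 to 25 lower and 23 to 31 higher. The fold of 3 left 18 higher. Apart from the counts on both arrays and with dim signals at their limit, these alternatives were counted for LINC probes only. Whether the counts of all probes moved in the same way was not tested. The 441 detected LINC probes became 925 when a signal only had to be significant against background, and 548 above the negative control spots by 3 SD. The median log2 fold change on both arrays lay between -0.02 and 0.03 under all 7 alternatives. The 26 named LINC probes beyond 0.5 on both arrays kept their sign under each of the 6 scalings. These scalings rework the same 2 arrays, so the kept signs cannot show whether a direction would recur. The calls differed. LINC00659 did not pass 2-fold with quantile normalization, lowess centring, normexp or the authors' values. No LINC probe on both arrays passed with normexp. LINC00857 passed with lowess centring alone and LINC00504 with block centring alone. LINC00858 went from -0.98 to -0.41 with normexp.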

Other observations

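Some LINC names held probes that read very differently. At LINC01349 the probe with 115 and 205 had a direct neighbour that does not overlap it, and that neighbour read 6.38 and 3.23. Of the 4 LINC01550 probes on both arrays, one had a log2 fold change of -0.83 and the others, of which a pair shared 42 letters, lay within 0.03 of 0. In LINC00944 a pair sharing 39 letters had log2 fold changes of 0.11 and -0.49, and a pair sharing 23 letters had -0.51 and -0.49.

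In the scan files the 2 LINC01198 probes on both arrays are placed 1.738e+07 bases apart. The probes of LINC01000 are placed on different chromosomes. Those on chromosome 3, which share 43 letters, had 1771 and 1579 (log2 fold change 0.14) and 2013 and 1724 (0.09), and the one on chromosome 7 had 292 and 194 (-0.28). In all, 43 LINC probes shared a run of 20 letters with a probe of another name. Of these, 26 (60.5%) were detected, compared with 26.6% of all LINC probes, and the reason for the difference was not tested. A LINC00963 probe and a HYAL4 probe on chromosome 7 shared 20 letters, and they had signals of 2963 and 2885 (log2 fold change 0.27) and of 4253 and 3864 (0.17). The other 5 LINC00963 probes on both arrays were below 0. In the other pairs whose signals were read, the partner was well above background on neither array. THC2603076 shared 40 letters with a LINC01311 probe (4.59 and 3.25), and XLOC_l2_010855 shared 32 with LINC00499 (3.245 and 3.37). The partner lnc-DHRS7B-2 shared 23 with LINC01563, and lnc-SLC6A12-6 shared 21 with LINC00504.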
